A study of Caenorhabditis elegans with 8 samples.

Results

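The genes described here encode the machinery that moves the ribosome along a message: 6 translation elongation factor genes and the 3 stalk protein genes of the large ribosomal subunit. The factor genes are eef-1A.1 (F31E3.5), eef-1A.2 (R03G5.1), eef-1B.1 (F54H12.6), eef-1B.2 (Y41E3.10), eef-1G (F17C11.9) and eef-2 (F25H5.4), and the stalk genes rla-0 (F25H2.10), rla-1 (Y37E3.7) and rla-2 (Y62E10A.1). They were taken by name, not by their values, as 9 of the 45461 rows of a count table from Caenorhabditis elegans larvae. In the cycle of elongation, eEF1A bound to GTP carries aminoacyl-tRNA to the ribosome. The eEF1B subunits, in a complex that eEF1G holds together, recharge eEF1A with GTP, and eEF2 drives translocation. The stalk, in which the P0 protein anchors P1 and P2, recruits these GTPases and stimulates them. Their messages are among the abundant ones of growing animals.

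Oxidized and reduced populations of worms of the same stage were compared, with 4 libraries each, from biological replicates 1, 2, 3 and 5. All worms were L2 larvae carrying the transgene jrIs2[Prpl-17::Grx1-roGFP2], in which the promoter of rpl-17, itself a ribosomal protein gene, drives a glutathione redox sensor, and there was no group without the sensor. They had been synchronized as arrested L1 larvae and grown on OP50 bacteria at 20 °C. About 10000 worms were pooled per replicate, and each replicate carries a date in its labels: June28 for 1 and 2, July7 for 3 and August6 for 5. For replicate 5 another label names the opposite redox state for both libraries, so the results were also computed without it and with its states exchanged. Its titles read High for the reduced and Low for the oxidized library, as in the other replicates.

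Libraries held 635990 to 1089259 counts, and the summed share of the 9 rows was small, at 9107 of 6407344 counts, or 0.142%. By total count the eef-1A.1 row was number 275 among the 13216 rows with any count. The mitochondrial genome's 12 coding rows, usually abundant, held 190 counts in all. How strand was set during counting is not stated in the sources used here, so a row is called by its gene's name without implying which strand its reads came from. Only 1 of the 9 has a row in the table for a gene that overlaps it on the other strand by at least 20 exon bases, the lowest overlap considered. For eef-1A.1, the protein-coding gene F31E3.12 shares 77 exon bases on the other strand but has no row in the table. Whether its reads fell in the eef-1A.1 row could not be checked. As markers of tissue, 5 body wall muscle rows summed to 537 to 1042 CPM in oxidized and 525 to 1806 CPM in reduced libraries (CPM: TMM-scaled counts per 1000000). All 5 had log2 fold changes of oxidized over reduced below 0 (median −0.76), with 1 at an unadjusted p under 0.05 and 0 past the adjusted threshold. The 5 epidermal marker rows summed to 4482 to 11821 CPM in oxidized and 1093 to 6363 CPM in reduced libraries, with 4 of the 4 tested above 0 (median 1.72), 4 at an unadjusted p under 0.05, against 5.27% of all rows, and 0 past the adjusted threshold. The 4 germ line marker rows held 89 counts in all. The part of tissue make-up in the levels below was not tested, and in whole larvae fewer cells of a type and less RNA per cell cannot be told apart.

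None of the 9 rows passed the test between oxidized and reduced worms. All 9 passed the filter on low counts, and 0 were higher and 0 lower at an adjusted p under 0.05 (edgeR quasi-likelihood test, Benjamini-Hochberg over 2315 rows). Over all rows tested, 0.216% were called higher and 0% lower. At an unadjusted p under 0.05 there were 0 of the 9, against 5.27% of all rows, and DESeq2 and limma voom called 0 as well. For DESeq2 and limma voom the share of all rows called is not given here. With the replicate number as a block 0 of the 9 and 0.648% of all rows were called. The median log2 fold change was −0.16 over the 9 rows and −0.05 over all rows, with 7 of the 9 and 54.2% of all rows below 0. In all 9 rows the values of the groups overlapped, while 3.02% of all rows had groups that did not. Each of the 9 had an edgeR adjusted p of 0.999. The intervals were wide: across the 9 rows they reached from −2.15 to 1.25 on the log2 scale, and a 2-fold change in some direction lay inside the interval of 7 rows. In what follows, the values of a group are given in the order of replicates 1, 2, 3 and 5.

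**Figure D1:**
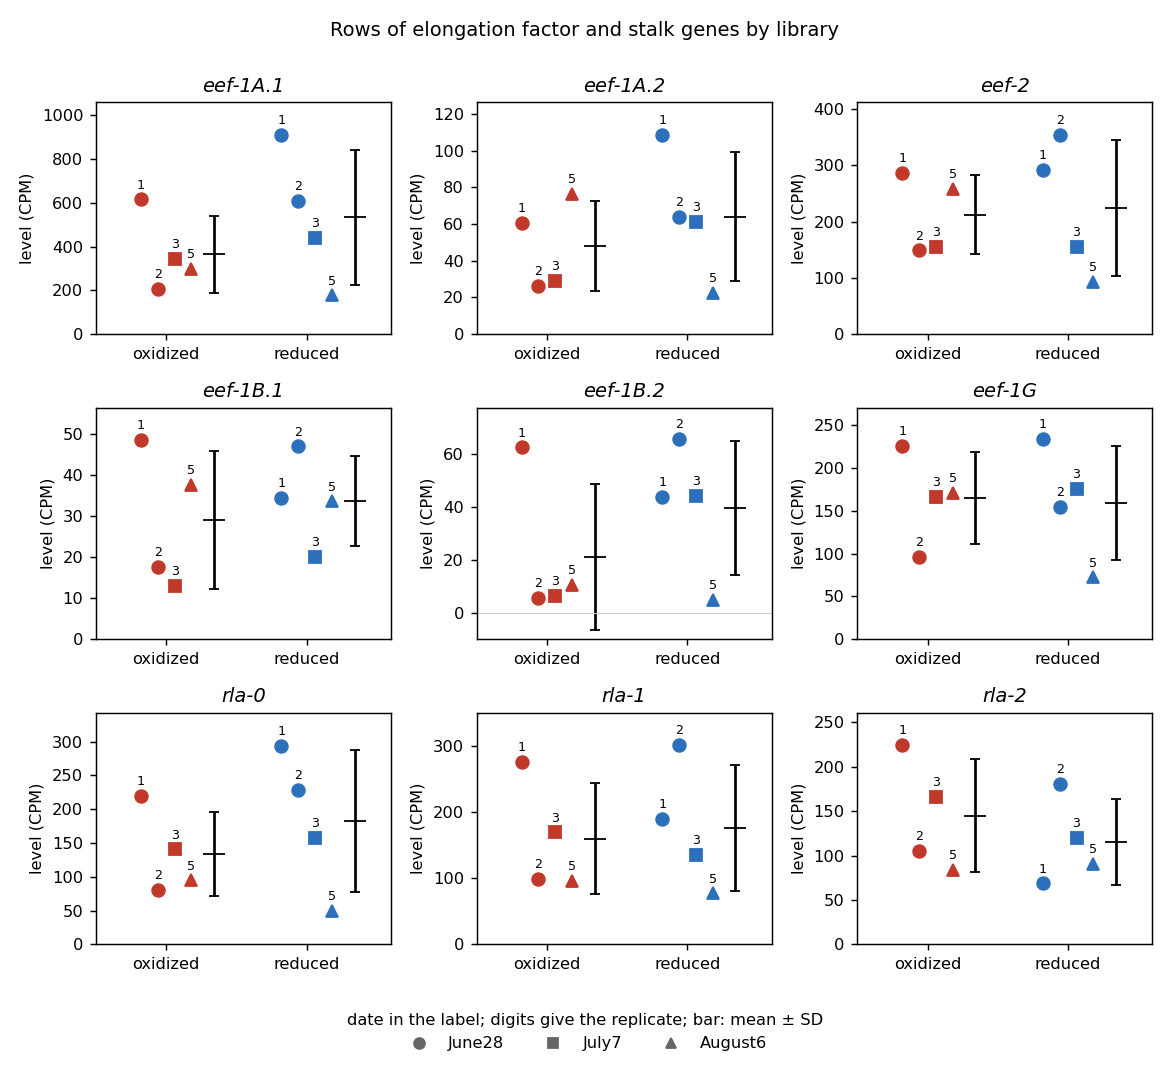
Level of each of the 9 rows (vertical axis, CPM) in oxidized and reduced libraries, with 1 point per library, its shape giving the date, its digit the replicate, and the bar the mean ± SD of 4 libraries. Groups overlap in every panel, and the June28 libraries oxidized 1 and reduced 2 stand at or near the top of most panels. Reduced 1, also June28, is highest for eef-1A.1, eef-1A.2, eef-1G and rla-0 and lowest for rla-2.

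The eEF1A genes deliver aminoacyl-tRNA, and eef-1A.1 gave the largest number of counts of the set, 2905 over the 8 libraries. In WBcel235, the annotation used here, it lies on chromosome III at 6970026 to 6971712, on the minus strand, with 4 exons. Its level was 615, 206, 342 and 299 CPM in oxidized libraries, against 909, 607, 439 and 176 CPM in reduced libraries. The highest and the lowest value both belonged to reduced libraries, replicates 1 and 5. Oxidized worms averaged 365 ± 176 CPM and reduced worms 533 ± 307 CPM (SD, n = 4 each). The log2 fold change was −0.53 (SE 0.42, 95% interval −1.41 to 0.34), with the oxidized library lower in 3 of 4 pairs.

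The other eEF1A gene, eef-1A.2, encodes a closely related protein and lies on chromosome X at 7823654 to 7825769. It had 60.7, 26.2, 29.0 and 76.5 CPM in oxidized libraries, against 108.5, 63.7, 61.3 and 22.4 CPM in reduced libraries. As for eef-1A.1, reduced replicate 1 was the highest library and reduced replicate 5 the lowest. The log2 fold change was −0.37 (SE 0.55, 95% interval −1.50 to 0.76). Because the coding sequences are similar, reads may have been split or dropped between the pair in a way that the counts do not show.

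The balance between the eEF1A rows varied little outside oxidized replicate 5. The eef-1A.1 row took 91.0%, 88.7%, 92.2% and 79.6% of the eEF1A counts in oxidized libraries, and 89.3%, 90.5%, 87.7% and 88.8% in reduced libraries. The share of 79.6% in oxidized replicate 5 had an exact binomial 95% interval of 74.1% to 84.4%, below the value of every other library; such intervals cover counting error only. Groups overlapped in this share, at 87.9% ± 5.70 in oxidized and 89.1% ± 1.15 in reduced worms (SD, n = 4 each).

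Among the exchange subunits, eef-1B.1 and eef-1B.2 were the rows with the fewest counts, 208 and 212 over all libraries. The eef-1B.1 gene lies on chromosome III at 7972382 to 7973386, and eef-1B.2 on chromosome IV at 15037331 to 15039551. In oxidized libraries eef-1B.1 had 48.6, 17.5, 12.9 and 37.5 CPM, against 34.3, 47.0, 20.0 and 33.5 CPM in reduced libraries. The log2 fold change was −0.16 (SE 0.59, 95% interval −1.37 to 1.05). The lowest libraries were oxidized replicates 3 and 2 and reduced replicate 3, with 8, 12 and 14 counts.

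The eef-1B.2 row varied more than any other of the set, 13.2-fold between its highest and lowest library. It had 62.6, 5.83, 6.45 and 10.5 CPM in oxidized libraries, against 43.9, 65.7, 44.2 and 4.97 CPM in reduced libraries. In counts these were 67, 4, 4 and 7 in oxidized and 32, 63, 31 and 4 in reduced libraries, where 3 counts, taken as the floor, correspond to 2.75 to 4.72 CPM before scaling. Values thus lay at a high level of 43.9 CPM or more in 4 libraries and a low one of 10.5 CPM or less in the other 4, and both levels occurred in both groups. The log2 fold change was −0.69 (SE 0.71, 95% interval −2.15 to 0.77). It was −2.38 without oxidized replicate 1 and −0.27 without reduced replicate 2, and passed in neither fit. Of the counts of the eEF1B pair, eef-1B.1 took 43.7%, 75.0%, 66.7% and 78.1% in oxidized libraries and 43.9%, 41.7%, 31.1% and 87.1% in reduced libraries. With 12 to 119 counts per library behind it, this share had an exact 95% interval of 70.2% to 96.4% in reduced replicate 5 and of 18.2% to 46.6% in reduced replicate 3, the extremes.

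The non-coding gene F54H12.9 overlaps eef-1B.1 on the other strand by 60 bases, at chromosome III 7973327 to 7973465. Its row held 6, 8, 27 and 4 counts in oxidized and 0, 12, 0 and 12 in reduced libraries, too few to pass the filter. Per length that made 496 counts per kb of exon, against 248 for eef-1B.1. With both rows summed and the table refitted, the log2 fold change of the sum was 0.16 (edgeR adjusted p = 0.999), against −0.16 for the eef-1B.1 row alone. The sum takes in the whole F54H12.9 row, although only 60 of that gene's 139 exon bases overlap eef-1B.1.

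The eef-1G gene, for the structural gamma subunit that holds the exchange complex together, lies on chromosome V at 10965719 to 10967922. It was the steadiest row of the set, varying 3.24-fold, with 226, 96.2, 166 and 171 CPM in oxidized libraries, against 233, 154, 175 and 72.0 CPM in reduced libraries. Means were 165 ± 53.2 CPM in oxidized and 159 ± 66.8 CPM in reduced worms (SD, n = 4 each). Its log2 fold change was 0.07 (SE 0.42, 95% interval −0.79 to 0.94).

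Translocation depends on eEF2, encoded by eef-2 on chromosome I at 9163531 to 9166952. Its row had 287, 149, 155 and 258 CPM in oxidized libraries, against 292, 355, 155 and 93.1 CPM in reduced libraries. Reduced libraries held both the highest and the lowest value. Averages were 212 ± 70.6 CPM in oxidized and 224 ± 121 CPM in reduced worms (SD, n = 4 each), and the log2 fold change was −0.07 (SE 0.42, 95% interval −0.94 to 0.79).

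In the stalk, rla-0 encodes the anchor protein P0 and lies on chromosome I at 10567894 to 10569017. Its row had 219, 80.2, 140 and 94.5 CPM in oxidized libraries, against 294, 229, 157 and 49.7 CPM in reduced libraries. The log2 fold change was −0.42 (SE 0.47, 95% interval −1.39 to 0.55). Its order of libraries was that of eef-1A.1 at both ends, with reduced replicate 1 highest and reduced replicate 5 lowest.

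The P1 gene rla-1 lies on chromosome I at 2069086 to 2069575, and the P2 gene rla-2 on chromosome IV at 13369425 to 13370285. The rla-1 row had 275, 99.1, 169 and 96.0 CPM in oxidized libraries, against 189, 302, 135 and 77.0 CPM in reduced libraries. The rla-2 row had 225, 105, 166 and 84.0 CPM in oxidized libraries, against 68.7, 181, 120 and 90.6 CPM in reduced libraries. Reduced replicate 1, the top library for both eEF1A rows and rla-0, was the lowest of all for rla-2. Log2 fold changes were −0.12 for rla-1 (SE 0.45, 95% interval −1.05 to 0.81) and 0.34 for rla-2 (SE 0.44, 95% interval −0.56 to 1.25), the highest of the set.

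P1 and P2 work as heterodimers, and the balance between their rows varied among the reduced libraries. Of the counts of both, rla-2 took 44.96%, 51.4%, 49.5% and 46.7% in oxidized and 26.6%, 37.4%, 46.9% and 54.1% in reduced libraries. The 26.6% of reduced replicate 1 had an exact 95% interval of 20.4% to 33.5%, and the 54.1% of reduced replicate 5 one of 45.3% to 62.7%. The groups overlapped, at 48.1% ± 2.89 in oxidized and 41.3% ± 11.9 in reduced worms (SD, n = 4 each).

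Levels of different genes were compared per length, as CPM per kb of exon over the 8 libraries. The order of means was rla-1 at 381 (range 175 to 684), eef-1A.1 at 292 (115 to 591), rla-2 at 288 (152 to 499), rla-0 at 153 (48.1 to 284), eef-1G at 111 (49.4 to 160) and eef-2 at 77.9 (33.3 to 127). Below them came eef-1B.1 at 37.4 (15.4 to 57.8), eef-1A.2 at 29.2 (11.7 to 56.6) and eef-1B.2 at 14.9 (2.43 to 32.2). Neighbours in this order had ranges that overlapped, whereas eef-1A.1 and eef-1A.2 did not overlap. The eef-1B.2 row was last in each of the 8 libraries. The median row tested stood at 54.2 CPM per kb, a level that 6 of the 9 exceeded. Tested rows of cytosolic ribosomal protein genes had a median of 538 CPM per kb, above each of the 9, the stalk proteins included.

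**Figure D2:**
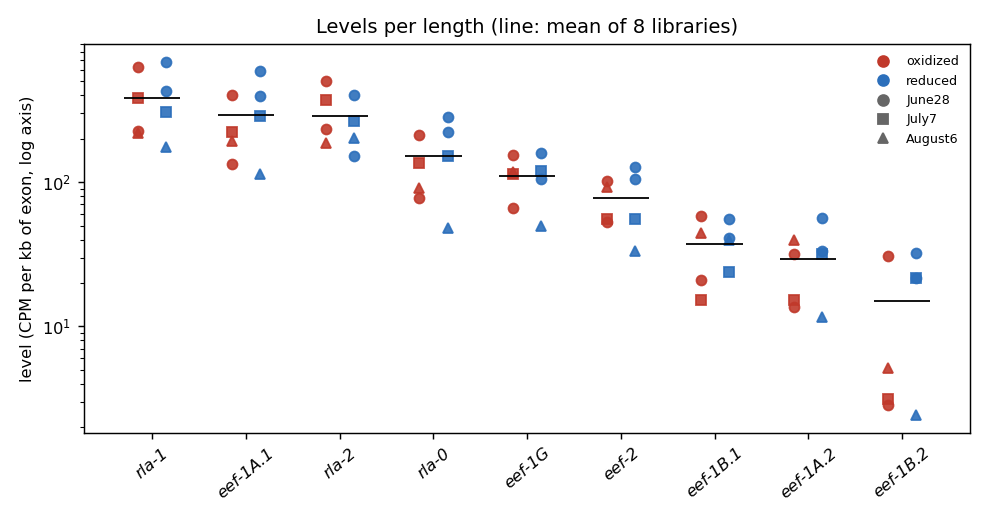
Level per length (vertical log axis, CPM per kb of exon) of each row in the 8 libraries, oxidized in red and reduced in blue, with shapes for the dates and a line at the mean of 8 libraries. Stalk rows and eef-1A.1 lie highest, with means of 153 to 381, and eef-1B.2 lowest, with a mean of 14.9.

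**Figure D3:**
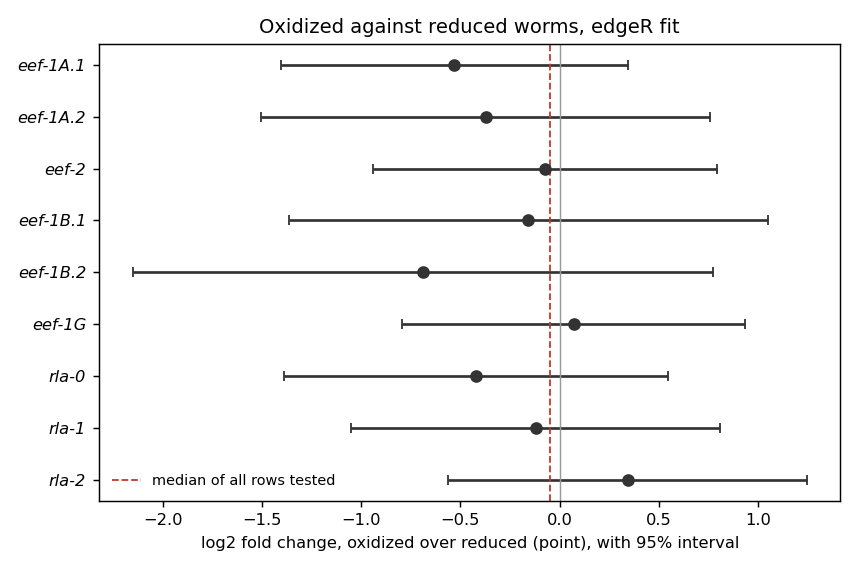
Log2 fold change of oxidized over reduced worms (horizontal axis) for each of the 9 rows, as points with 95% intervals from the edgeR fit, and the median of all rows tested as a dashed line. Every interval includes 0, from eef-1B.2 at −0.69 to rla-2 at 0.34.

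The libraries of the same group differed more than the groups. The 9 rows together summed to 2020, 784, 1187 and 1127 CPM in oxidized libraries, against 2174, 2003, 1308 and 619.6 CPM in reduced libraries. The spread was 3.51-fold between libraries, while the means were 1279 ± 524 CPM in oxidized and 1526 ± 711 CPM in reduced worms (SD, n = 4 each). Oxidized replicate 1 and reduced replicate 2 had 9 of 9 rows above their own mean on the log2 scale and reduced replicate 1 had 8 of 9. Oxidized replicate 2 had 0 of 9 and reduced replicate 5 had 1 of 9.

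Within same-numbered pairs the direction was not shared. In replicates 3 and 5 the titles also give the reduced library a code R4 and the oxidized one R5, of unstated meaning. In replicate 2 all 9 rows were lower in the oxidized library, with a median log2 ratio of −1.40. In replicate 5, the one with conflicting labels, 8 of 9 rows were higher in the oxidized library, at a median of 0.92, and rla-2 alone was lower. Replicates 1 and 3 were mixed, with 4 and 2 of 9 rows higher and medians of −0.03 and −0.16. Over all rows tested the median ratio lay between −0.0032 and 0.04 in the 4 pairs. Without replicate 5, and with its states exchanged, 0 of the 9 rows passed in either direction. In the main fit 0.216% of all rows passed, and the share in these fits is not given here. With the states exchanged the eef-1A.2 row had a log2 fold change of −1.10 (edgeR adjusted p = 0.998), against −0.37 as labelled, and eef-2 had −0.62 against −0.07.

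**Figure D4:**
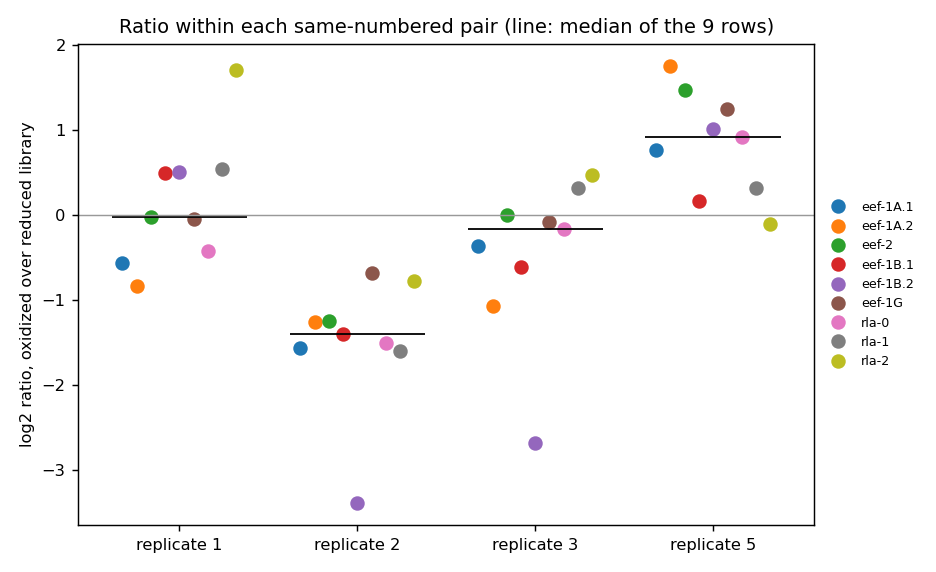
Log2 ratio of the oxidized over the reduced library (vertical axis, from CPM + 0.5) in each same-numbered pair, with 1 point per row and a line at the median of the 9. All points lie below 0 in replicate 2 and 8 of 9 above 0 in replicate 5.

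In a fit with redox state as a covariate, the average of the libraries dated June28 lay above that of the later ones in each of the 9 rows and in 53.3% of all rows, at a median log2 difference of 0.73 against 0.06. Single libraries did not all share this: June28 oxidized replicate 2 was below the log2 mean of each of the 9 rows, with 206 CPM for eef-1A.1 against 299 to 439 CPM in 3 of the 4 later libraries, and June28 reduced replicate 1 was the lowest library for rla-2. At an edgeR adjusted p under 0.05 none of the 9 passed (0.173% of all rows did, none of them higher in June28), and at an unadjusted p under 0.05 there were 3, eef-1A.1, eef-1B.2 and rla-1, against 4.19% of all rows higher in June28. Tested ribosomal protein rows were likewise higher in June28 libraries in 75 of 75 cases, at a median of 0.62. The redox difference did not pass a test of differing between June28 and later libraries for any of the 9 (edgeR interaction, 0% of all rows).

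Ribosomal protein rows varied along with the stalk rows. The 78 ribosomal protein rows took 4.78%, 1.69%, 3.02% and 1.82% of counts in oxidized libraries, against 2.41%, 6.05%, 2.99% and 1.78% in reduced libraries. Per 100 counts of ribosomal protein rows, the stalk rows had 1.48, 1.56, 1.53 and 1.51 counts in oxidized libraries and 2.02, 1.28, 1.30 and 1.18 in reduced libraries. This ratio varied 1.71-fold between all libraries, with 1.52 ± 0.035 in the oxidized and 1.44 ± 0.387 in the reduced ones (SD, n = 4 each). Reduced replicate 1, at 2.02, was above every oxidized library, and the other reduced libraries were below every oxidized one. Without it the reduced libraries stood at 1.25 ± 0.061 (SD, n = 3). Leaving out the value farthest from the rest narrows a spread in any case, so no conclusion is drawn from that figure. That library was left out after its value was seen, and no other was left out in turn. With 175 to 771 stalk counts per library, counting error was not separated from these spreads.

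For the 6 elongation factor rows the same ratio varied 2.71-fold between libraries. Per 100 ribosomal protein counts they had 2.67, 2.75, 2.29 and 4.70 counts in oxidized libraries, against 5.93, 2.33, 2.81 and 2.19 in reduced libraries. Reduced replicate 1 and oxidized replicate 5 stood above the rest, which lay between 2.19 and 2.81. In reduced replicate 1 the eEF1A rows alone had 3.72 counts per 100, against 1.08 to 2.07 elsewhere. In oxidized replicate 5 the eef-2 row had 1.42 per 100, the highest of any library. The highest and the lowest library for the 6 rows were both reduced.

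**Figure D5:**
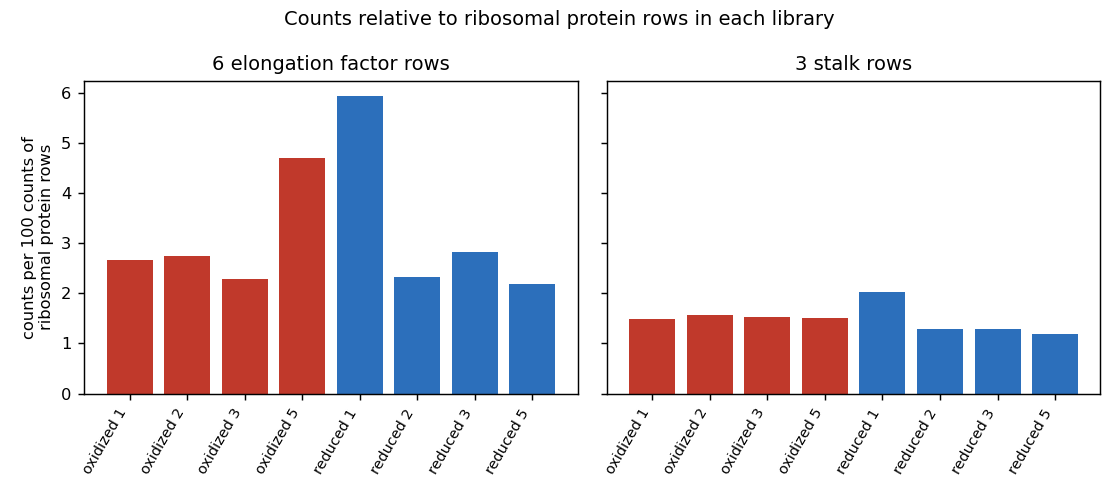
Counts of the 6 elongation factor rows and of the 3 stalk rows per 100 counts of ribosomal protein rows (vertical axes, from 0) in each library, oxidized in red and reduced in blue. Stalk rows stay between 1.18 and 2.02, while elongation factor rows reach 4.70 in oxidized replicate 5 and 5.93 in reduced replicate 1.

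Rows most like the set were named by the highest Pearson correlation of log2(CPM + 0.5) with the mean profile of the 9 rows, as a description over 8 libraries that share depth and scaling. These were ttr-44, a transthyretin-like gene (0.979), rpl-2 (0.976), mup-2, a troponin T gene (0.966), rpl-18 (0.953) and rps-30 (0.945), of which 3 are ribosomal protein genes. Of the 50 rows most like the set among 2306 compared, 18 belonged to the 75 ribosomal protein rows compared. The median was 0.75 over ribosomal protein rows and −0.07 over all rows compared.

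Other translation factor genes also gave no call in either direction, where only 0.216% of all rows tested were called. Of 30 initiation factor and poly(A)-binding protein rows in the table, 8 were tested. Their median log2 fold change was −0.52, and 7 lay below 0. The lowest p among them belonged to ifg-1, the eIF4G scaffold, at −1.06 (SE 0.72), then pab-2 at −0.88 (SE 0.68), pab-1 at −0.48 (SE 0.40) and drr-2, an eIF4H-like factor, at −0.61 (SE 0.61). Both pab genes encode poly(A)-binding proteins, and pab-1, with 3060 counts, held about as many counts as the eef-1A.1 row.

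Of 10 rows listed as other elongation genes, 5 were tested, with 3 below 0 and a median of −0.10. Mitochondrial factors and a splicing GTPase were also on this list, and a mitochondrial row was among those tested. The row of efk-1, the kinase that phosphorylates eEF2 and slows it, had 28.3 ± 11.4 CPM in oxidized and 10.6 ± 17.1 CPM in reduced worms (SD, n = 4 each). Its log2 fold change was 1.35 (SE 0.81, edgeR adjusted p = 0.999), on 116 counts in all. The rows of rack-1, a scaffold on the small subunit, of iff-2, an eIF5A gene, and of tct-1, the translationally controlled tumour protein, had −0.38, −0.12 and 0.12. Termination and recycling factor rows held 124 counts in all, and 0 of 4 were tested. Of 75 tested ribosomal protein rows, 65 were below 0, with a median of −0.23, and none was called.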

How the data were processed

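Total RNA of pooled larvae was depleted of ribosomal RNA and made into stranded libraries, per the labels' protocols; the molecule label reads polyA RNA. The authors deposited raw counts per gene, with no normalization recorded. Listed in the submitters' processing notes are TopHat2 2.0.13 with Bowtie2 2.2.1, Cuffdiff 2.1.1 with Cufflinks, and FastQC 0.11.3. Neither the build and annotation nor the counter's version and strandedness is stated in the sources used here. There were 2 columns matching no labelled sample, which were not used.

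Exon lengths and overlaps came from Ensembl's WBcel235 annotation, where 44933 row names matched 1 gene. Groups follow the redox characteristic. The whole table was fitted in edgeR 4.0.16 under R 4.3.3 (filterByExpr, TMM scaling, glmQLFit with robust = TRUE and legacy = FALSE, glmQLFTest), after a check on simulated data. SEs are the fold change over the root of F, and 95% intervals use its degrees of freedom. DESeq2 1.42.0 and limma 3.58.1 ran on the same rows. Other alternatives changed scaling, filter, blocks and libraries. Tables were handled in Python 3.11.15. No 2 libraries had identical counts. Titles give both libraries of a replicate number the same date, which was taken as pairing them, although replicates 1 and 2 have 1 date in common. Deviations from group means correlated at 0.058, −0.16, 0.13 and 0.30 within these pairs. Between libraries of different number they correlated at −0.46 to 0.41. The highest value belonged to oxidized replicate 1 with reduced replicate 2, both dated June28, so these correlations do not single out the pairing by number.

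The 9 genes and all lists were chosen with earlier results of these data known. Named were the 9 genes, overlapping genes, up to 4 rows with the smallest p per list, and the 5 rows most like the set. F54H12.9 and F31E3.12 are named as the overlapping genes. The tests on date and its interaction with redox state were added after the data were seen. Ratios within pairs, shares of counts between rows and ratios to ribosomal protein counts were not planned beforehand either. Nor was the removal of reduced replicate 1 from the stalk ratio. Sequences of these genes were not used here.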

Additional observations from a re-analysis of the deposited data

Results flagged for a closer look

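In the eef-1B.2 row, oxidized replicate 1 had 62.6 CPM, far from the other oxidized libraries, which had 5.83 to 10.5 CPM. This was 1 of 30 groups of 4 values checked for a library far from the others, where chance gives about 1.5. Reduced libraries of replicates 1, 2 and 3 had 43.9 to 65.7 CPM in this row, and reduced replicate 5 had 4.97 CPM, the lowest of all libraries.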

How the results depend on the processing

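Under 20 alternatives, 0 of the 9 rows passed in either direction. Of all rows, 0.216% passed in the main fit and 0.648% with the replicate block, so 0 of 9 says little. Shares for the other alternatives are not given here. Of 179 recomputed fold changes, 155 kept their direction and 24 turned, all with adjusted p over the threshold; eef-1B.2 and rla-2 did not turn but ranged from −2.38 (without oxidized 1) to −0.27 (19 fits, since it missed the filter in the later libraries alone) and from 0.023 (without oxidized 1) to 0.68. The log2 fold change of eef-2 became 0.055 with limma voom, 0.0084 with the replicate block, which changed no call, and 0.033 with date as a covariate. That of eef-1G became −0.17 without replicate 5, −0.37 with its states exchanged and −0.26 in June28 libraries alone. In July7 and August6 libraries alone eef-1A.1 became 0.073, eef-1A.2 0.38, eef-2 0.75, rla-0 0.21 and rla-1 0.33. With both strands summed, the eef-1B.1 row together with the whole F54H12.9 row had 0.16. Leaving out 1 library turned eef-2 to 0.074 (oxidized 2), 0.022 (oxidized 3), 0.079 (reduced 1) and 0.26 (reduced 2), in a range from −0.30. It turned eef-1B.1 to 0.033 (oxidized 2), 0.039 (oxidized 3) and 0.075 (reduced 2), from a low of −0.59, and rla-1 to 0.064 (oxidized 2), 0.043 (oxidized 5) and 0.30 (reduced 2), from a low of −0.55. It turned eef-1G to −0.13 (oxidized 1) and −0.14 (reduced 5), with a high of 0.32. The cause was not tested. The summed level of the 9 rows, 0.128% of scaled counts in oxidized and 0.153% in reduced libraries, was 0.125% and 0.148% with plain totals, and without 1 library 0.103% to 0.144% and 0.131% to 0.183%. Counts per row, as low as 4 for eef-1B.2, limit precision.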

Other observations

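Rows of genes that act just before or just after elongation gave no call between oxidized and reduced worms either, where only 0.216% of all rows tested were called. Of 20 cytosolic tRNA synthetase rows in the table, 5 were tested, 3 of them below 0, and none was called. The lowest p belonged to glp-4, a valyl-tRNA synthetase, whose log2 fold change was −1.15 (SE 0.78) with an edgeR adjusted p of 0.999, and to dars-1, for aspartyl-tRNA, at −0.74 (SE 0.51). The rows of rars-1 and cars-1, for arginyl- and cysteinyl-tRNA, had 0.94 (SE 0.70) and 0.32 (SE 0.48).

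Of 7 rows of factors that meet the nascent chain, 4 were tested and none was called. The nascent polypeptide-associated complex subunits icd-1 and icd-2 had log2 fold changes of −0.24 (SE 0.42) and −0.33 (SE 0.38). The Hsc70 chaperone gene hsp-1 had −0.18 (SE 0.38) and the ribosome-associated J-protein gene dnj-11 had 0.12 (SE 0.63).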
